A study of Mus musculus with 12 samples.

Results

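The matrix metalloproteinases *Mmp2*, *Mmp3*, *Mmp9*, *Mmp10*, *Mmp11*, *Mmp13*, *Mmp14*, *Mmp19* and *Mmp23* were followed across the cell types of the mouse hind limb joint. They were taken by gene symbol from the deposited matrices, in which they are 9 of 27998 genes, and 14 further *Mmp* genes are present beside them. Single-cell RNA sequencing had been done on live CD45-negative cells, from which most immune cells are thereby removed, in serum transfer-induced arthritis (STIA), a model in which serum from K/BxN mice with arthritis inflames the joints of recipients for some weeks. All 12 libraries came from wild-type (WT) male C57BL/6 mice of 8 to 10 weeks, and each was a pool of joint cells from 3 animals, freed with collagenase and other enzymes. The 3 libraries labelled rest (day 0) came without serum. An intravenous injection of 100 µl serum preceded the 3 libraries labelled peak by 7 to 9 days, those labelled resolving by 15 days and those labelled resolved by 22 days. Capture was with the 10x Genomics 3′ version 2 kit, which counts unique molecular identifiers (UMIs), the tags of single captured RNA molecules, near the 3′ end of a transcript.

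Matrix metalloproteinases are zinc-dependent enzymes that cut collagens, proteoglycans and other matrix proteins outside the cell, and they are made as inactive precursors. Their activity is held in check by the tissue inhibitors of metalloproteinases (Timps), and precursors are opened by furin-like convertases, by plasmin or by other family members. In the joint they are known from cartilage and bone remodelling and from the tissue damage of arthritis. RNA levels, the only quantity measured here, do not show how much active enzyme was present.

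A set of 3 members lies in a group of 10 *Mmp* genes on mouse chromosome 9 (GRCm38), which spans 427 kb. *Mmp13* lies at chr9:7272514-7283331, *Mmp3* at chr9:7445822-7455975 and *Mmp10* at chr9:7502352-7510240, all on the plus strand. The other members are spread over the genome, with *Mmp9* at chr2:164940780-164955850, *Mmp23* at chr4:155650655-155653384, *Mmp2* at chr8:92827291-92853420 and *Mmp14* at chr14:54431612-54445364. *Mmp11* at chr10:75923222-75936496 overlaps *Chchd10* on the opposite strand, and *Mmp19* at chr10:128790910-128800824 overlaps *Tmem198b* and the antisense gene *Gm47093*, so their counts are less certain where the counting did not use strand. Promoter windows of 250 bases before to 50 bases after the start site were taken from RefSeq (GRCm38.p6), and 6 of the 9 members had one. *Mmp2*, *Mmp9* and *Mmp19* were not among them. The 120 bases before the annotated start are shown for the 3 members on chromosome 9, because these were the windows that held both the AP-1 motif TGANTCA and the TATA box TATAAA, which are in capitals. They lie at chr9:7445702-7445821, chr9:7502222-7502341 and chr9:7272394-7272513, all on the plus strand.

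Mmp3: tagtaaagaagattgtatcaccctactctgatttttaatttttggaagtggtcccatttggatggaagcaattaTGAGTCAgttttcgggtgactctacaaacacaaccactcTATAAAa
Mmp10: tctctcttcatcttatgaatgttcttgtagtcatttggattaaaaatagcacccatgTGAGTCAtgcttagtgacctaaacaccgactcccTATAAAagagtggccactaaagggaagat
Mmp13: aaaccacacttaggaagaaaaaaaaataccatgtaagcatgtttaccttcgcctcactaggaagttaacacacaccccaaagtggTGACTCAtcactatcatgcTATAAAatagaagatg

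Neither motif was found in the windows of *Mmp11*, *Mmp14* and *Mmp23*, searched on both strands. Of all 32851 promoter windows of that length, 7.81% held TGANTCA and 13.6% held TATAAA. A match of letters is a description and not a bound site, and the absence of one says only that these letters are not in this window.

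The quality limits of the study kept 20060 of 21042 deposited cells, with 1227 to 2747 cells and 7468914 to 16566202 UMIs per library, and no barcode was shared in any of the 66 pairs of libraries. The median was 5358 UMIs per deposited cell in every library. The cells were clustered without *Mmp* and *Timp* genes, and clusters were named by marker genes. The largest class was fibroblast-like (11400 cells, 56.8%), with 11 clusters expressing fibroblast markers such as *Pdgfra*, *Dcn* and *Lum*. Tenocyte-like (2972 cells), vascular endothelial-like (1768), osteoblast-like (1382), proliferating (702), perivascular-like (655), chondrocyte-like (314), muscle-like (265), lymphatic endothelial-like (186), immune-like (112) and Schwann-like cells (109) followed, and these are called by the cell type alone in what follows. The chondrocyte cluster passed 7 chondrocyte markers and also 4 osteoblast markers. A cluster of 980 cells led by *C1qtnf3* and *Spon2* was named tenocyte. Clusters led by *C1qtnf3* were named fibroblast at a coarser cluster setting and with *Mmp* and *Timp* genes used for clustering. One cluster of 132 cells led by genes of mature muscle fibres stayed unnamed, and 63 cells were erythroid-like.

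Libraries did not group by their labels. The barcodes of each library carry a suffix from 1 to 12, and by fibroblast sums over 11755 genes the nearest library came from the same suffix run of 3 (1 to 3, 4 to 6, 7 to 9, 10 to 12) in 12 of 12 cases and the same label in 0 of 12. Suffixes 1 to 3 are rest 1, peak 1 and resolving 1, 4 to 6 are resolved 1, rest 2 and peak 2, 7 to 9 are resolving 2, resolved 2 and rest 3, and 10 to 12 are peak 3, resolving 3 and resolved 3. What the runs stand for is not given in the sources used here, so the stages below are those on the labels, and values are given by run where they differ by run.

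In the kept cells *Mmp2* was counted with 149994 UMIs, *Mmp14* with 49688, *Mmp13* with 47807, *Mmp3* with 37894, *Mmp23* with 14014, *Mmp19* with 4115 and *Mmp11* with 2070. *Mmp9* had 415 UMIs in 128 cells and *Mmp10* had 121 UMIs in 35 cells. Levels are given as counts per 1000000 UMIs (CPM) of the summed cells of one class in one library, for sums of at least 10 cells, and n counts libraries. Such a level cannot tell fewer expressing cells from less RNA per cell. Fibroblasts held 57.3% of all UMIs and, for 7 of the 9 members, between 50.4% and 77.2% of the member's UMIs. The exceptions were *Mmp13*, of which osteoblasts held 53.0%, and *Mmp9*, of which immune-like cells held 70.6%.

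**Figure D1:**
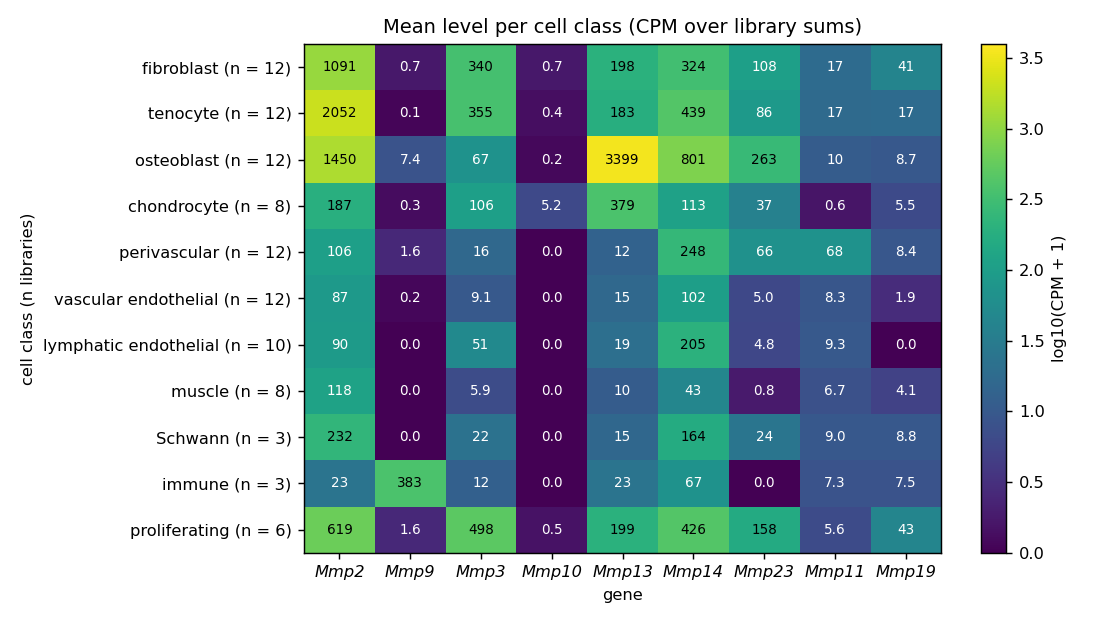
Mean level of each member (columns) in each cell class (rows, with the number of libraries), in CPM printed in the cells and as log10(CPM + 1) by colour. *Mmp13* was highest in osteoblasts (3399 CPM), *Mmp2* in tenocytes (2052 CPM), *Mmp11* in perivascular cells (68 CPM) and *Mmp9* in immune-like cells (383 CPM).

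Cell classes were set against fibroblasts in a single model that blocked on library (edgeR's quasi-likelihood test, two-sided, Benjamini-Hochberg adjustment over 10900 genes), and a call needed an adjusted p under 0.05 with a log2 fold change past 0.5 in size. *Mmp10* was too low for the test, so 8 members were tested. In vascular endothelium 7 members were lower and 0 higher, where 26.6% of all genes tested were lower and 26.1% higher. In lymphatic endothelium 6 were lower and 0 higher (25.9% and 11.9% of all genes), in muscle 7 lower and 0 higher (25.7% and 10%), and in chondrocytes 6 lower and 0 higher (27% and 19.2%). Perivascular cells had 6 members lower and 1 higher (22.8% and 16.2%). Osteoblasts had 4 members higher and 3 lower (12.5% and 16.4% of all genes), and tenocytes 1 higher and 1 lower (5.87% and 8.39%). The median log2 fold change of the members tested was -3.75 in vascular endothelium, -2.92 in muscle, -1.57 in chondrocytes and in perivascular cells, 0.16 in tenocytes and 0.85 in osteoblasts, where that of all genes was 0.00, -0.49, -0.16, -0.12, -0.03 and -0.03. In lymphatic endothelium it was -3.62, and -3.43 with *Mmp19*, which had no UMI there, at its bound.

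Of the gelatinases, *Mmp2* (gelatinase A), which cuts denatured collagen and basement membrane collagen and is made by many mesenchymal cells, was found in 87.4% of fibroblasts with at least 1 UMI. That share was 72.8% after each cell was thinned to 2000 UMIs, against 17.6% and 11.0% in vascular endothelial cells, the background for shares here, whose median depth was 3176.5 UMIs against 5567 in fibroblasts. In fibroblasts the level of *Mmp2* was 820 CPM in the lowest library, 937 CPM in the median and 1637 CPM in the highest. In tenocytes, the cells of tendon and ligament, it was 935, 1979 and 4054 CPM, and it was higher than in fibroblasts in 12 of 12 libraries. The log2 fold change was 0.88 (SE 0.22, edgeR adjusted p = 0.00105). The difference was unequal between runs, with log2 fold changes of 0.40, 0.36, 0.81 and 1.87 in suffixes 1 to 3, 4 to 6, 7 to 9 and 10 to 12 alone. It was called in 22 of 26 alternative fits. The tenocyte cluster led by *C1qtnf3* and *Spon2*, whose name changed with the cluster setting, held 910 to 6005 CPM. The largest tenocyte cluster (1745 cells, led by *Angptl7* and *Wif1*) held 865 to 1613 CPM in suffixes 4 to 9, within the fibroblast range. In the other 6 libraries that cluster held 694 to 3889 CPM. In osteoblasts the level of *Mmp2* was 1007 to 1787 CPM and the log2 fold change 0.37 (SE 0.21, edgeR adjusted p = 0.171), with 10 of 12 libraries higher. In chondrocytes it was 73.6 to 438 CPM in 8 libraries and lower by a log2 fold change of -2.48 (SE 0.29, edgeR adjusted p = 1.87e-12).

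*Mmp9* (gelatinase B), known from neutrophils and osteoclasts, was rare in the stromal classes. Its level was 823 CPM in the immune-like cells of peak 2, 222 CPM in those of resolving 2 and 104 CPM in those of resolved 2, the 3 libraries with at least 10 such cells. These levels differ between the libraries, and no test was possible with 1 library a label. In all 112 immune-like cells, from all libraries, 30 held *Mmp9* (26.8%, against 0.0566% of vascular endothelial cells), and 23.6% of the cells did after thinning. The 10 cells with most *Mmp9* held 253 UMIs, and 1 cell held 111. Genes of neutrophils made up 26.6% of the UMIs of the immune-like cells with *Mmp9* and 9.63% of those without, genes of osteoclasts 0.518% and 0.0264%, and genes of macrophages 1.09% and 1.37%.

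In osteoblasts *Mmp9* had 45 UMIs, with 1.08 CPM in the lowest library, 6.01 in the median and 21.9 in the highest, against 0 to 1.87 CPM in fibroblasts. By run it was 6.59 to 21.9 CPM in osteoblasts of suffixes 4 to 9 and 1.08 to 5.43 CPM in the others. It was higher in osteoblasts in 12 of 12 libraries, by a log2 fold change of 3.22 (SE 0.30, edgeR adjusted p = 2.14e-15), a fold that rests on few UMIs. In the 98 cells outside the immune-like class that held *Mmp9*, neutrophil markers made up 0.00993% of the UMIs and osteoclast markers 0.0544%. All 6 of 6 neutrophil markers and 3 of 6 osteoclast markers were detected in them. *Acp5*, on the osteoclast list, was also a leading gene of a fibroblast cluster. Neutrophil markers ranged from 1.76 to 2590 CPM over all cells of a library, and their part in the *Mmp9* counts of osteoblasts was not tested. In perivascular cells *Mmp9* had a log2 fold change of 1.18 (SE 0.53, edgeR adjusted p = 0.0739).

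The stromelysins cut proteoglycans and fibronectin and can open the precursors of collagenases. *Mmp3* (stromelysin 1) was found in 22.7% of fibroblasts, 14.5% after thinning, against 2.66% and 1.21% of vascular endothelial cells. Its level in fibroblasts was 58.5 CPM in the lowest library, 262 CPM in the median and 847 CPM in the highest, and in tenocytes 25.0, 241 and 1039 CPM. The ranges overlap, with a log2 fold change of 0.44 (SE 0.37, edgeR adjusted p = 0.464) and 5 of 12 libraries higher in tenocytes. The runs differed in direction, with log2 fold changes of 1.01 and -0.75 in suffixes 1 to 3 and 4 to 6 alone, neither called, -1.13 in 7 to 9, called lower, and 2.77 in 10 to 12, called higher. In osteoblasts it was 15.5, 39.4 and 312 CPM and lower in 12 of 12 libraries, by a log2 fold change of -2.35 (SE 0.40, edgeR adjusted p = 6.62e-07). In vascular endothelium the log2 fold change was -5.36 (SE 0.53, edgeR adjusted p = 1.1e-15), and in chondrocytes -1.57 (SE 0.50, edgeR adjusted p = 0.00545), with resolved 2, at 657 CPM, as the 1 chondrocyte sum above its fibroblast sum. In the 6 libraries with enough proliferating cells *Mmp3* was 152 to 1432 CPM there.

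*Mmp10* (stromelysin 2) was rare throughout. Fibroblasts held 50.4% of its UMIs and chondrocytes 35.5%, while chondrocytes held 3.19% of all UMIs. At least 1 UMI was found in 9 of 314 chondrocytes. The chondrocyte level was 2.08 CPM in rest 1, 11.6 CPM in peak 1 and 28.3 CPM in resolving 1, which are suffixes 1 to 3. It was 0 in the other 5 libraries with a chondrocyte sum, all of suffixes 4 to 9, so label and run cannot be told apart here. The fibroblast level was 0 to 3.45 CPM, with 7 of 12 libraries at 0. In vascular endothelium 0 of 1768 cells held a UMI of it, which allows up to 0.17% of cells with a UMI and sets no limit on cells that express the gene.

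The collagenase *Mmp13*, which cuts fibrillar collagens and is known from osteoblasts and hypertrophic chondrocytes, set osteoblasts apart. It was found in 56.2% of osteoblasts (48.0% after thinning) and in 11.9% of fibroblasts (7.17%), against 3.39% (1.79%) of vascular endothelial cells, at a median depth of 5268 UMIs in osteoblasts. The level in osteoblasts was 1584 CPM in the lowest library, 2722 CPM in the median and 7938 CPM in the highest, and in fibroblasts 7.75, 204 and 606 CPM. The ranges do not overlap, and osteoblasts were higher in 12 of 12 libraries by a log2 fold change of 4.77 (SE 0.42, edgeR adjusted p = 9.9e-18). The fibroblast level varied more by fold between libraries than the osteoblast level, and the log2 fold change was 6.29, 4.28, 2.77 and 5.70 in suffixes 1 to 3, 4 to 6, 7 to 9 and 10 to 12 alone.

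In chondrocytes *Mmp13* varied from 0 CPM in peak 2 to 1803 CPM in resolved 2. It was 67.6 CPM in rest 1, 11.6 CPM in peak 1, 1.89 CPM in resolving 1, 34.1 CPM in resolved 1, 371 CPM in rest 2 and 746 CPM in resolving 2. High and low libraries both occur among the rest, resolving and resolved labels. The log2 fold change from fibroblasts was 0.65 (SE 0.46, edgeR adjusted p = 0.239). Its runs were opposed, with -1.07 and -0.83 in suffixes 1 to 3 and 4 to 6 alone, neither called, and 2.08 in 7 to 9, called higher. Tenocytes held 9.50 to 583 CPM, with 6 of 12 libraries above their fibroblasts and a log2 fold change of 0.13 (SE 0.38, edgeR adjusted p = 0.877). That value averages runs of opposite direction, with -2.53 in suffixes 4 to 6, called lower, 2.16 in 10 to 12, called higher, and 0.36 and -0.01 in 1 to 3 and 7 to 9, neither called.

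**Figure D2:**
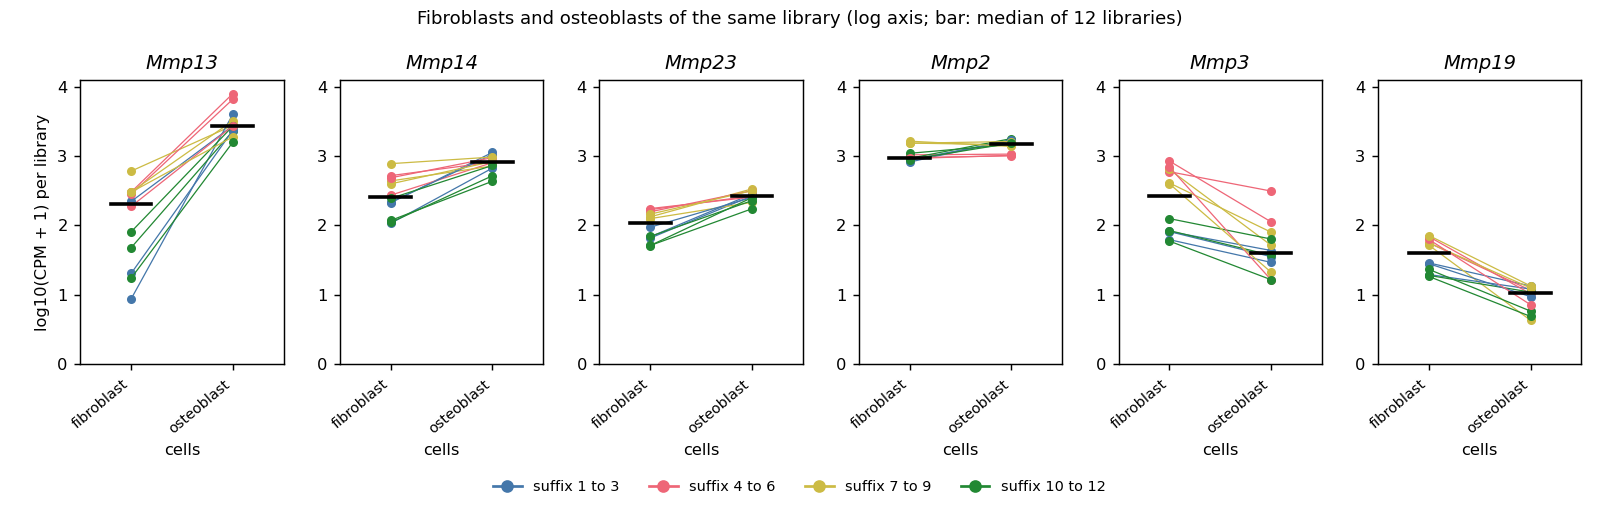
Level of 6 members in the fibroblasts and osteoblasts of each library, as log10(CPM + 1), with 1 line per library coloured by its run of barcode suffixes and a bar at the median. *Mmp13*, *Mmp14* and *Mmp23* rise in all 12 lines, *Mmp3* and *Mmp19* fall in all 12, and *Mmp2* rises in 10.

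The membrane-bound members were also higher in osteoblasts. *Mmp14* (MT1-MMP), a collagenase of the cell surface that opens the *Mmp2* precursor together with Timp2, was 433 CPM in the lowest, 811 CPM in the median and 1127 CPM in the highest osteoblast library, against 106, 258 and 776 CPM in fibroblasts. The ranges overlap, but within every one of the 12 libraries osteoblasts were higher, by a log2 fold change of 1.53 (SE 0.20, edgeR adjusted p = 1.32e-10). Tenocytes held 93.6, 298 and 1190 CPM, with 8 of 12 libraries higher and a log2 fold change of 0.50 that missed the threshold (SE 0.19, edgeR adjusted p = 0.055). It passed on leaving out rest 1, rest 2, peak 1, resolving 1 or resolved 1, with log2 fold changes from 0.41 to 0.58 over all 12 such fits. By run alone the value in tenocytes was -0.31 and -0.03 in suffixes 1 to 3 and 4 to 6, neither called. It was 0.90 and 0.93 in 7 to 9 and 10 to 12, both called higher. *Mmp14* was lower than in fibroblasts in perivascular cells, by a log2 fold change of -0.60 (SE 0.21, edgeR adjusted p = 0.0158), in lymphatic endothelium (-1.27, SE 0.27, edgeR adjusted p = 4.59e-05), in chondrocytes (-1.35, SE 0.26, edgeR adjusted p = 3.84e-06) and in vascular endothelium (-1.96, SE 0.21, edgeR adjusted p = 5.8e-14). Its level of 20.6 to 254 CPM in vascular endothelium shows that it was counted there too.

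*Mmp23*, which is anchored in membranes until a convertase releases it, was 173, 261 and 335 CPM in the lowest, median and highest osteoblast library, against 50.4, 109 and 174 CPM in fibroblasts. The highest fibroblast library was just above the lowest osteoblast library, and within libraries osteoblasts were higher in 12 of 12, by a log2 fold change of 1.33 (SE 0.14, edgeR adjusted p = 2.35e-14). It was at or near 0 in endothelium and muscle. In vascular endothelium it was 0 to 10.4 CPM (log2 fold change -4.57, SE 0.24, edgeR adjusted p = 1.98e-32), and in muscle 0 to 6.57 CPM (-5.92, SE 0.72, edgeR adjusted p = 4.73e-11). The median in tenocytes was 52.0 CPM (-0.26, SE 0.14, edgeR adjusted p = 0.196). By run alone the log2 fold change there was -0.65 and -0.73 in suffixes 1 to 3 and 4 to 6, both called lower. It was 0.36 in 7 to 9 and -0.18 in 10 to 12, neither called.

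*Mmp11* (stromelysin 3), which furin activates inside the cell, was the member that was higher in perivascular cells, the pericytes and smooth muscle cells of vessel walls. It was 13.8, 62.5 and 123 CPM there, against 8.80, 13.1 and 39.7 CPM in fibroblasts. The ranges overlap, and perivascular cells were higher in 12 of 12 libraries by a log2 fold change of 1.86 (SE 0.20, edgeR adjusted p = 6.96e-14). At least 1 UMI was found in 20.2% of perivascular cells (11.5% after thinning) and 7.75% of fibroblasts (3.04%), against 2.66% (1.60%) of vascular endothelial cells. In chondrocytes *Mmp11* was 0 to 2.59 CPM (-3.79, SE 0.62, edgeR adjusted p = 1.52e-07). The lower level in osteoblasts, with a median of 10.3 CPM and a log2 fold change of -0.57 (SE 0.23, edgeR adjusted p = 0.0403), was lost on leaving out rest 3, peak 2, resolving 1, 2 or 3, or resolved 2 or 3 (-0.72 to -0.37 over all such fits), and in suffixes 1 to 3 alone the log2 fold change was 0.05.

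*Mmp19*, a secreted enzyme of broad specificity, had 77.2% of its UMIs in fibroblasts, which held 57.3% of all UMIs. Its mean was 42.5 CPM in proliferating cells and 41.1 CPM in fibroblasts. Proliferating cells were higher in 1 of the 6 libraries with both sums. The level of *Mmp19* in fibroblasts was 17.4, 39.4 and 70.6 CPM in the lowest, median and highest library. In osteoblasts it was 3.29, 9.66 and 12.4 CPM, below every fibroblast library (log2 fold change -1.97, SE 0.22, edgeR adjusted p = 1.37e-12). In tenocytes it was 4.07, 14.7 and 34.7 CPM and lower in 11 of 12 libraries (-0.96, SE 0.17, edgeR adjusted p = 3.15e-06). No UMI was found in lymphatic endothelium, in 0 of 186 cells, which allows up to 1.61% of cells with a UMI and sets no limit on cells that express the gene. In the 10 libraries with at least 10 such cells the level was at least 10.2-fold lower than in fibroblasts, by a limit of 3 counts over the UMIs of those 10 sums (4.03 CPM).

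Within the fibroblasts, 1137 cells of a cluster with *Prg4*, *Clic5* and *Htra4*, markers of the synovial lining, were set against 1518 sublining cells with *Cd34*, *Thy1*, *Pi16* and *Dpp4*, and against the 8745 other fibroblasts. *Mmp9* and *Mmp10* were too low in these sums, and 7 members were tested. Against the sublining 1 member was higher and 2 were lower in the lining (13.2% and 15.4% of 7857 genes), and against the other fibroblasts 0 were higher and 5 lower (11.6% and 16.7%). The members' median log2 fold change was -0.64 and -1.38, and that of all genes -0.01 in both comparisons.

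*Mmp2* in the lining was 99.0 CPM in the lowest library, 359 CPM in the median and 875 CPM in the highest, and in the sublining its median was 778 CPM. The lining was lower in 12 of 12 libraries, with a log2 fold change of -1.21 (SE 0.16, edgeR adjusted p = 2.2e-07). *Mmp23* was 9.82, 35.0 and 86.8 CPM in the lining against a median of 150 CPM in the sublining, and again lower in 12 of 12 libraries (-2.00, SE 0.18, edgeR adjusted p = 4.16e-11). *Mmp19* went the other way, at 9.28, 23.5 and 109 CPM against a median of 13.0 CPM. It was higher in 8 of 12 libraries, by a log2 fold change of 0.59 (SE 0.23, edgeR adjusted p = 0.0348). That call was lost on leaving out rest 2, peak 2 or any of the 3 resolved libraries (0.40 to 0.76 over all such fits), and in suffixes 1 to 3 alone the log2 fold change was -0.69.

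The remaining members missed the threshold between lining and sublining. *Mmp13* had a log2 fold change of 1.06 (SE 0.48, edgeR adjusted p = 0.0751) from medians of 11.5 and 6.84 CPM, *Mmp3* of -0.67 (SE 0.39, edgeR adjusted p = 0.182), *Mmp11* of -0.64 (SE 0.33, edgeR adjusted p = 0.115) and *Mmp14* of 0.11 (SE 0.14, edgeR adjusted p = 0.584). Against the other fibroblasts 5 members were lower. *Mmp13* had a median of 253 CPM in the other fibroblasts and was lower in the lining by a log2 fold change of -3.37 (SE 0.26, edgeR adjusted p = 9.73e-13). *Mmp3* had a median of 43.0 CPM in the lining and 341 CPM in the other fibroblasts (-2.61, SE 0.33, edgeR adjusted p = 4.81e-08). *Mmp2* (-1.84, SE 0.16, edgeR adjusted p = 1.69e-11), *Mmp23* (-1.38, SE 0.17, edgeR adjusted p = 1.74e-08) and *Mmp11* (-1.13, SE 0.24, edgeR adjusted p = 0.000217) were lower too. *Mmp14* was below the fold limit (-0.41, SE 0.13, edgeR adjusted p = 0.00872) and *Mmp19* missed the p threshold (-0.25, SE 0.16, edgeR adjusted p = 0.19).

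**Figure D3:**
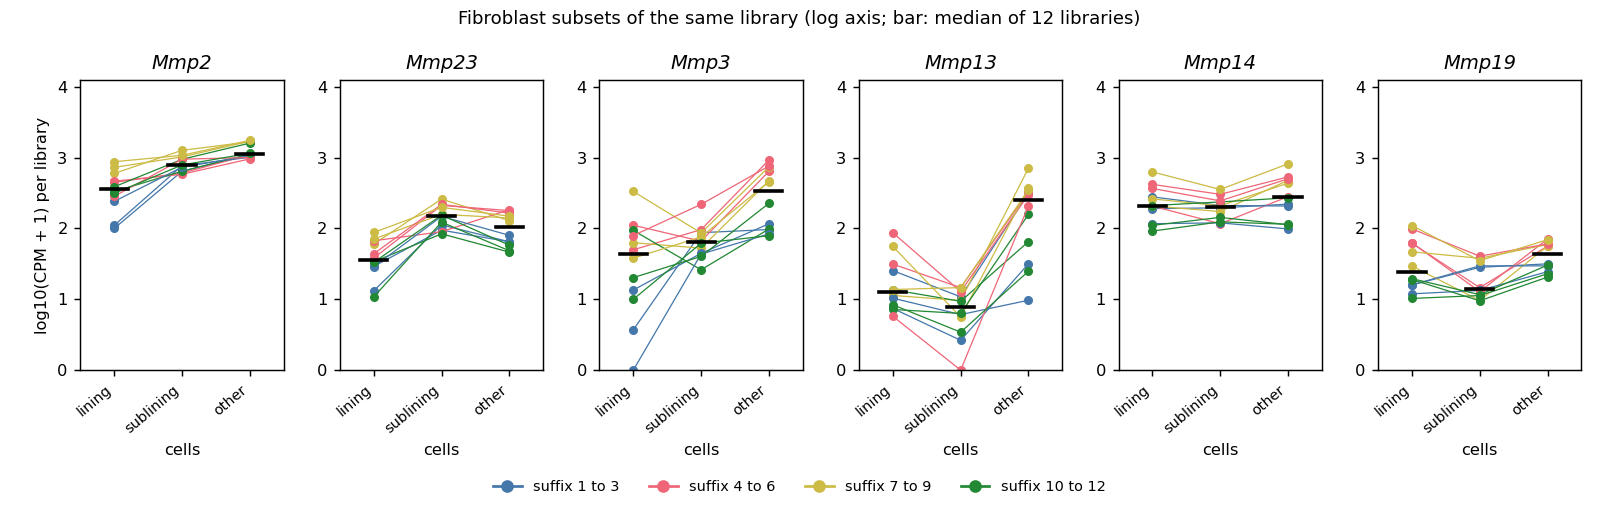
Level of 6 members in the lining, sublining and other fibroblasts of each library, as log10(CPM + 1), with 1 line per library coloured by its run of barcode suffixes and a bar at the median. *Mmp2* and *Mmp23* are lower in the lining than in the sublining in all 12 lines, and *Mmp13* and *Mmp3* have their highest medians in the other fibroblasts (253 and 341 CPM).

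Among the 11 fibroblast clusters, which are described here without a test, members had different high points. The cluster led by *Cytl1*, *Mfi2* and *Clu* (565 cells), which also passed 2 chondrocyte markers, had the highest mean of *Mmp3*, 3302 ± 3695 CPM (SD, n = 11), and a *Mmp13* level of 779 ± 843 CPM. The cluster led by *Mdk*, *Acp5* and *Sox4* (1009 cells) had the highest means of *Mmp2* (2326 ± 1281 CPM), *Mmp14* (801 ± 297 CPM), *Mmp11* (72.3 ± 46.1 CPM) and *Mmp19* (89.7 ± 33.2 CPM; SD, n = 8). For each of these 4 members the highest sum, at 5092, 1271, 154 and 154 CPM, lay in 1 of the 2 libraries outside suffixes 4 to 9. In the 6 libraries of suffixes 4 to 9, which gave 95.9% of the cells, the medians were 1864, 655, 69.1 and 80.3 CPM. The *Mmp13* level of the *Mdk* cluster was 1102 ± 1208 CPM with a median of 513 CPM. The mean fell to 710 CPM without rest 1, at 3839 CPM. Without its own highest library the *Cytl1* cluster fell to a mean of 580 CPM. In the cluster led by *Cxcl5*, *Fabp5* and *Tnfsf11* (1551 cells), *Mmp3* was 732 ± 154 CPM, *Mmp13* 625 ± 533 CPM and *Mmp23* 185 ± 29.8 CPM (SD, n = 6).

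Where these clusters came from was uneven. Libraries with suffixes 4 to 9 gave 99.9% of the *Cxcl5* cluster, 95.9% of the *Mdk* cluster and 97.4% of a cluster led by *Lrrc15*, *Acta2* and *Tnn*, but 44.4% of the *Cytl1* cluster and 51.2% of the lining. The cluster led by *Nppc*, *Wnt16* and *Egfl6* (39.1% from those libraries) had *Mmp13* at 510 ± 633 CPM (SD, n = 12). In the *Lrrc15* cluster *Mmp13* was 219 ± 135 CPM (SD, n = 6), and in the 6 other clusters, lining and sublining included, its mean was between 6.59 and 22.1 CPM.

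**Figure D4:**
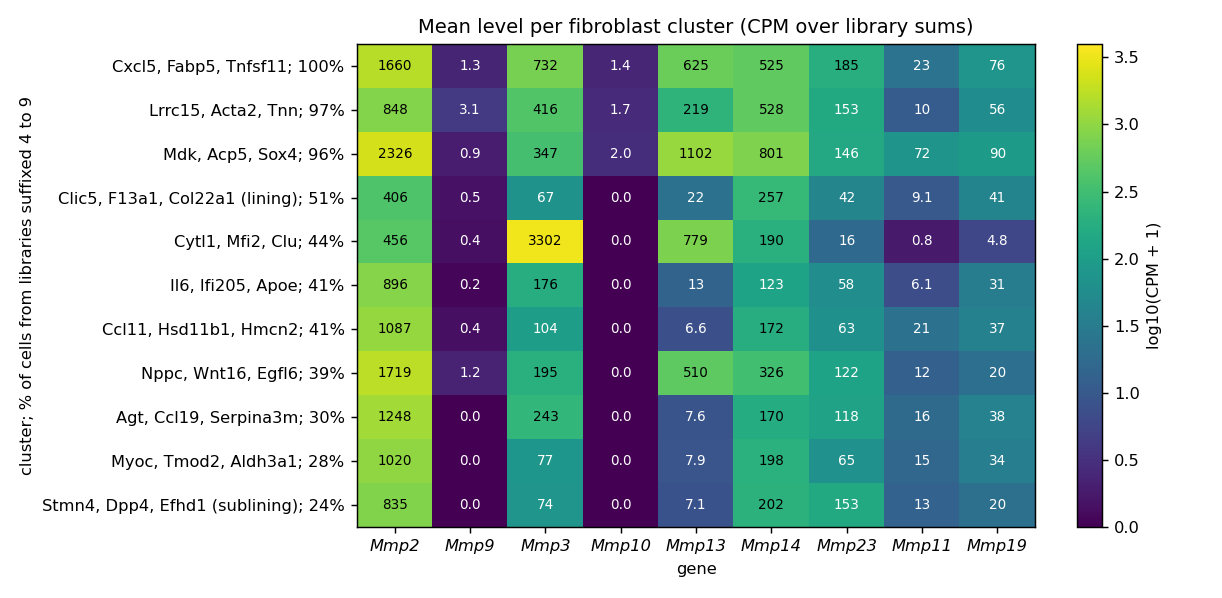
Mean level of each member in the 11 fibroblast clusters, in CPM printed in the cells and as log10(CPM + 1) by colour, with each cluster named by its leading genes and the share of its cells from libraries with suffixes 4 to 9. The 3 clusters from mostly those libraries are at the top, and the highest *Mmp3* mean (3302 CPM) lies in the *Cytl1* cluster.

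The fibroblast level of several members followed the runs of barcode suffixes rather than the labels. *Mmp3* was 81.0 CPM in rest 1, 80.8 CPM in peak 1 and 61.5 CPM in resolving 1 (suffixes 1 to 3). It was 696 CPM in resolved 1, 847 CPM in rest 2 and 595 CPM in peak 2 (4 to 6). It was 641 CPM in resolving 2, 398 CPM in resolved 2 and 409 CPM in rest 3 (7 to 9), and 83.4 CPM in peak 3, 125 CPM in resolving 3 and 58.5 CPM in resolved 3 (10 to 12). The 6 libraries of the middle runs thus lay far above the other 6, and each label has libraries on both sides.

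*Mmp14* was 211, 106 and 216 CPM in suffixes 1 to 3, 485, 272 and 522 CPM in 4 to 6, 397, 776 and 437 CPM in 7 to 9 and 117, 244 and 110 CPM in 10 to 12. *Mmp23* was 64.8, 67.6 and 93.4 CPM, then 156, 168 and 174 CPM, 132, 145 and 125 CPM, and 50.5, 68.5 and 50.4 CPM in the same order. *Mmp19* was 27.9, 18.6 and 27.1 CPM, then 61.8, 55.1 and 68.0 CPM, 55.1, 70.6 and 50.9 CPM, and 18.1, 22.3 and 17.4 CPM. For these 3 members, as for *Mmp3*, every library with a suffix from 4 to 9 was above every other library, so 4 of the 7 members tested did not overlap, against 11.1% of all 11755 genes. That grouping was chosen after the values were seen, and it was not tested.

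*Mmp13* in fibroblasts was 221, 7.75 and 19.4 CPM in suffixes 1 to 3, 187, 302 and 280 CPM in 4 to 6, 303, 301 and 606 CPM in 7 to 9 and 46.8, 80.0 and 16.4 CPM in 10 to 12. Rest 1, at 221 CPM, lay within the range of the middle runs. *Mmp2* (877, 820 and 872 CPM, then 949, 1041 and 921, 1531, 1637 and 1537, and 926, 1096 and 890 CPM) and *Mmp11* (9.67, 9.00 and 14.3 CPM, then 12.4, 10.4 and 13.9, 25.5, 33.2 and 39.7, and 8.80, 14.6 and 10.7 CPM) were high in suffixes 7 to 9 only.

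Taken run against run, every library of 7 to 9 was above every library of 1 to 3 for 7 of the 7 members (20.1% of all genes) and above every library of 10 to 12 for 7 of 7 (26.2%). Libraries of 4 to 6 were above those of 1 to 3 for 5 of 7 (22.1%) and above those of 10 to 12 for 5 of 7 (26.2%). Libraries of 10 to 12 were above those of 1 to 3 for 1 of 7, *Mmp2* (5.98%).

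**Figure D5:**
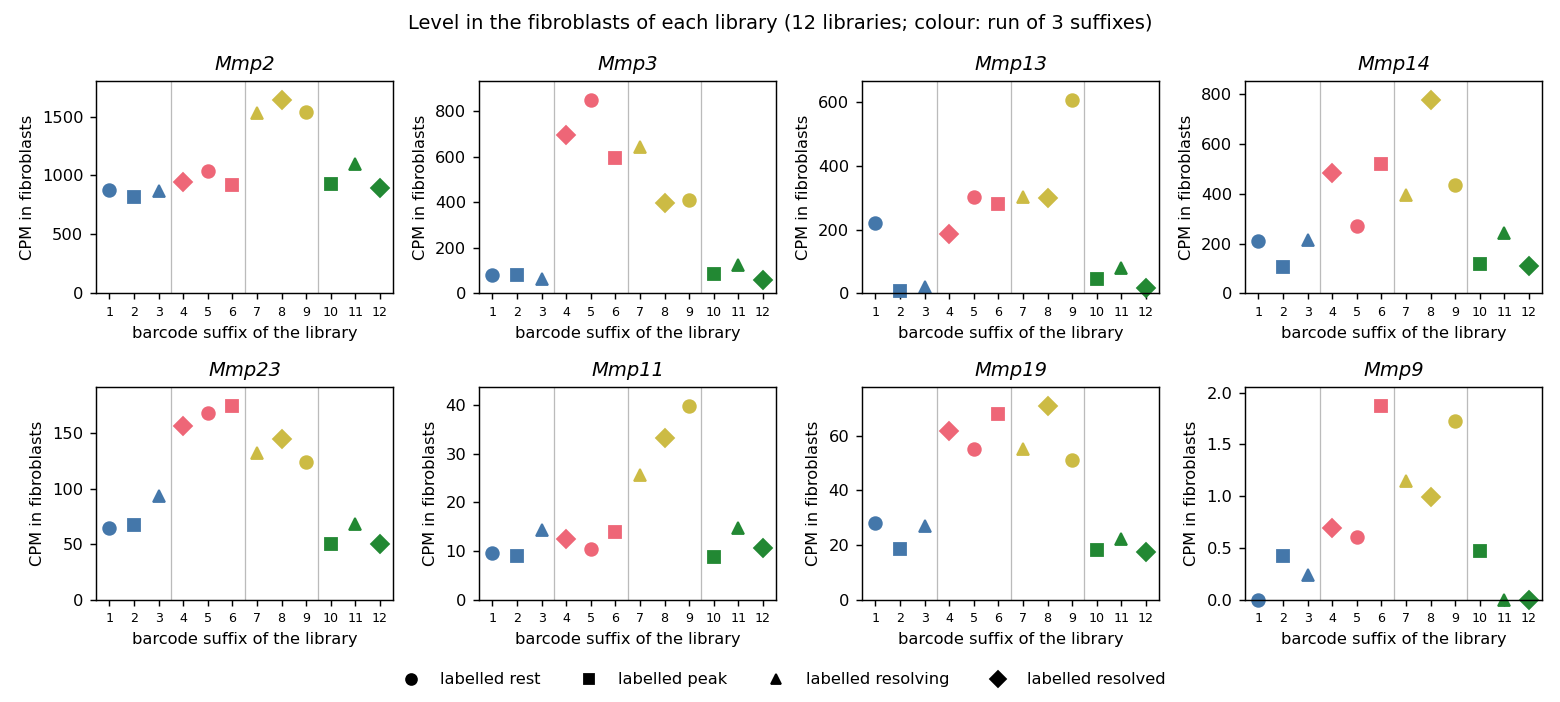
Level of 8 members in the fibroblasts of each of the 12 libraries, in CPM on linear axes, by the barcode suffix of the library, with marker shape for the label and colour for the run of 3 suffixes. *Mmp3*, *Mmp14*, *Mmp19* and *Mmp23* are higher in suffixes 4 to 9 than elsewhere, and *Mmp2* and *Mmp11* are highest in 7 to 9.

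Outside the pooled fibroblasts the difference between runs was seen for some members in some classes and clusters and not for others. In vascular endothelium *Mmp14* was 73.7 to 254 CPM in suffixes 4 to 9 and 20.6 to 54.3 CPM elsewhere, without overlap (5.79% of genes of at least 10 CPM). Within each of the 2 clusters of that class its ranges overlapped, at 7.65 to 139 against 8.28 to 39.8 CPM in the cluster led by *Aqp7* and *Car4*, where the medians were 21.8 and 26.8 CPM, and at 98.1 to 319 against 15.7 to 145 CPM in that led by *Selp* and *Plvap*. In perivascular cells *Mmp14* (278 to 475 against 50.1 to 184 CPM) and *Mmp23* (69.4 to 117 against 16.7 to 60.6 CPM) did not overlap (4.23%). In the lining *Mmp19* (28.4 to 109 against 9.28 to 18.6 CPM) and *Mmp23* (37.2 to 86.8 against 9.82 to 32.9 CPM) did not (4.83%). In the *Cytl1* cluster *Mmp3* was 2622 to 10610 CPM in suffixes 4 to 9 and 21.7 to 170 CPM in the 5 other libraries with a sum (3.73%), and *Mmp23* was 9.64 to 45.9 against 0 to 7.55 CPM.

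In the other fibroblasts, outside lining and sublining, *Mmp3* (457 to 925 against 78.0 to 225 CPM), *Mmp14* (280 to 817 against 97.5 to 270 CPM), *Mmp19* and *Mmp23* did not overlap. *Mmp14* in lymphatic endothelium (242 to 514 against 51.3 to 119 CPM) did not either. The same held for *Mmp23* in the clusters led by *Mdk*, by *Myoc* and by *Agt*. No share of all genes was counted for these. Many other cases overlapped, and some went the other way. In osteoblasts, in tenocytes and in the sublining, *Mmp3*, *Mmp14*, *Mmp19* and *Mmp23* each overlapped between the 6 libraries of the middle runs and the other 6. *Mmp3* overlapped in every fibroblast cluster with sums on both sides except the *Cytl1* cluster, and *Mmp14* overlapped in every such cluster. In the tenocyte cluster led by *C1qtnf3* and *Spon2*, *Mmp2* was lower in suffixes 4 to 9, at 910 to 3030 CPM (n = 5) against 5817 and 6005 CPM (n = 2), and *Mmp3* too, at 15.3 to 262 against 511 and 591 CPM. *Mmp23* was higher there, at 175 to 252 against 52.1 and 121 CPM. The share of all genes that separate in so few libraries was not counted for this cluster.

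Some measures of the cells moved with the runs. Genes induced by tissue dissociation were 15727 to 21608 CPM in the fibroblasts of suffixes 1 to 3 and 10 to 12, and 10614 to 13573 CPM in those of 4 to 9, the opposite direction from the members. Suffixes 7 to 9 stood apart in the fibroblasts' median depth, 4581.5 to 5297 UMIs against 5389 to 6322 in the other runs, and in the median mitochondrial share of UMIs, 2.68% to 2.93% against 1.97% to 2.54%. The part of these measures in the levels of the members was not tested. Without the *Cytl1* cluster *Mmp3* in fibroblasts was 376 to 593 CPM in suffixes 4 to 6 and 278 to 480 CPM in 7 to 9. It was 63.3 to 79.6 CPM in 1 to 3 and 60.5 to 120 CPM in 10 to 12. The *Cxcl5*, *Mdk* and *Lrrc15* clusters, which came mostly from suffixes 4 to 9, stayed in these sums. Their part in the *Mmp3* levels was not tested.

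By label, no member and no other gene was called in fibroblasts, with 0% of 11755 genes in each of peak, resolving and resolved against rest (edgeR). At an unadjusted p under 0.05 there were 70, 110 and 70 genes, and DESeq2 called 1 gene. The log2 fold changes of the 7 members tested were -1.73 to -0.28 at peak, -1.48 to 0.00 in resolving and -1.17 to 0.57 in resolved. *Mmp13* had the lowest in each, with -1.73 (SE 1.25, edgeR adjusted p = 0.99994) at peak, and libraries of one label lay far apart. *Mmp3* had -0.84 (SE 1.16, edgeR adjusted p = 0.99994) at peak, from 81.0, 847 and 409 CPM at rest and 80.8, 595 and 83.4 CPM at peak, ranges that overlap. A change by label was not detectable with this spread, and these values do not show that the levels were equal.

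The same comparisons in the lining (6776 genes), osteoblasts (6454), chondrocytes (3570), tenocytes (8972), perivascular cells (3196) and vascular endothelium (7012) called 0% of the genes tested (edgeR), with 1987 at an unadjusted p under 0.05 over all of them. The lowest unadjusted member p was 0.00101 in chondrocytes labelled resolved, 0.00935 in osteoblasts labelled resolved and 0.0228 in perivascular cells labelled peak (edgeR). None passed the adjustment over genes. These models held no term for the runs. With the suffix runs as a block, 4 pairs of a member and a comparison were called, all in chondrocytes, where 8 libraries had a sum. Over all genes of these classes there were 32 calls with this block, and the share within chondrocytes is not given here. With terms for both labels and runs in 8 libraries, few degrees of freedom were left. *Mmp13* was lower at peak (-3.06, SE 0.51, edgeR adjusted p = 0.0156), in resolving (-4.79, SE 0.57, edgeR adjusted p = 0.000311) and in resolved (-3.47, SE 0.57, edgeR adjusted p = 0.00978), and *Mmp3* was higher in resolved (4.33, SE 0.81, edgeR adjusted p = 0.0213). Without the block *Mmp13* had -4.25 (SE 2.48), 0.93 (SE 1.74) and 2.24 (SE 1.78) in the same order, so its direction in resolving and resolved turned with the block.

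The other genes of the pathway were taken as lists by role. Among 5 inhibitors, 1 was higher and 0 lower in osteoblasts, *Timp3* at a log2 fold change of 0.86 (SE 0.18, edgeR adjusted p = 3.56e-05), while *Timp2*, the partner of *Mmp14*, had -0.14 (SE 0.13, edgeR adjusted p = 0.427) and *Timp1* 0.06 (SE 0.25, edgeR adjusted p = 0.885). In the lining against the sublining 4 inhibitors were tested, of which 1 was higher and 3 were lower. *Timp1* had a log2 fold change of 2.39 (SE 0.24, edgeR adjusted p = 4.13e-10), *Timp2* -1.04 (SE 0.09, edgeR adjusted p = 4.45e-12), *Timp3* -2.73 (SE 0.21, edgeR adjusted p = 1.53e-12) and the membrane inhibitor *Reck* -1.92 (SE 0.24, edgeR adjusted p = 4.89e-08). In vascular endothelium, where 7 members were lower, 2 inhibitors were higher, *Timp4* (7.21, SE 0.27, edgeR adjusted p = 5.89e-43) and *Timp3* (1.45, SE 0.18, edgeR adjusted p = 8.24e-12), and 3 were lower.

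Among 9 genes of the activating systems, the convertases and the plasminogen activators with their receptor and serpins, 4 were higher and 3 lower in the lining against the sublining. *Furin*, the convertase that opens *Mmp11* and *Mmp14* precursors, had a log2 fold change of 2.83 (SE 0.18, edgeR adjusted p = 1.52e-14), and *Plat*, tissue plasminogen activator, -2.31 (SE 0.20, edgeR adjusted p = 2.14e-11). In osteoblasts 2 were higher and 4 lower, with *Furin* at -0.66 (SE 0.13, edgeR adjusted p = 7.42e-06) and *Plau*, urokinase, at -2.17 (SE 0.27, edgeR adjusted p = 6.72e-11). Of 12 matrix substrates, 5 were higher and 5 lower in osteoblasts, 9 lower and 2 higher in vascular endothelium, and 8 lower and 3 higher in chondrocytes.

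Of the 14 other *Mmp* genes, *Mmp1a*, *Mmp1b* and *Mmp21* had no UMI and 5 exceeded 10 CPM in a class. *Mmp8*, the neutrophil collagenase, was 248.7 ± 29.6 CPM (SD, n = 3) in the immune-like cells, where *Mmp25*, another neutrophil enzyme, was 13.1 ± 4.23 CPM. *Mmp15* (53.3 CPM), *Mmp17* (29.6 CPM) and *Mmp16* (15.0 CPM) had their highest means in Schwann cells, each from at most 17 UMIs. *Mmp16*, a membrane-type enzyme like *Mmp14*, was higher in osteoblasts than in fibroblasts by a log2 fold change of 1.06 (SE 0.24, edgeR adjusted p = 0.000147), and *Mmp15* in vascular endothelium by 5.76 (SE 0.25, edgeR adjusted p = 1.22e-37).

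In single fibroblasts thinned to 2000 UMIs, *Mmp13* was found in 21.0% of the cells with *Mmp3* and 4.82% of those without, and *Mmp14* in 63.3% of the cells with *Mmp13* and 35.1% of those without. These shares come from cells of all libraries, which differ in their levels, and are descriptions without a test. Across 100 sums of a class in a library, which share libraries and depth, the genes whose log2(CPM + 1) was most alike to that of a member by Pearson's r were *Serpinf1* (0.91), *Lum* (0.90) and *Col1a1* (0.90) for *Mmp2*, *Tnfsf11* (0.82), *Prss35* (0.80) and *Col8a2* (0.79) for *Mmp13*, and *Retnlg* (0.80), *Alox5ap* (0.78) and *S100a9* (0.72) for *Mmp9*. For *Mmp14* they were *Pdia3* (0.79), *Mfap2* (0.78) and *C1qtnf6* (0.78), for *Mmp23* *Col1a1*, *Ak1* and *Col3a1* (each 0.85), for *Mmp3* *Slc1a4* (0.77), *Ssc5d* (0.75) and *Dnm1* (0.75), for *Mmp19* *Aqp2* (0.77), *Col3a1* (0.76) and *Gpr153* (0.75), and for *Mmp11* *Pbxip1* (0.74), *Ptpn9* (0.67) and *Cacna1c* (0.67). *Mmp10* exceeded 10 CPM in 2 sums, too few for such a list.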

How the data were processed

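The authors aligned the reads to mm10 with Cell Ranger and deposited whole-number UMI counts per gene and cell for 12 libraries, before their limits on cells. Their limits were applied here (over 500 and under 5000 genes, over 500 UMIs, and an upper UMI limit of each library from 20000 to 40000). Cells were clustered in scanpy 1.11.5 (Leiden algorithm of leidenalg 0.10.2, Python 3.11.15) without *Mmp* and *Timp* genes and named by marker lists. Counts were summed per library and class, and sums of at least 10 cells were tested with edgeR 4.0.16 (R 4.3.3; TMM scaling, its filter on low counts, quasi-likelihood test). The standard error was the log2 fold change divided by the square root of F. Stage models held all 12 libraries without a block. Scrublet marked 56 cells (0.279%), too few for a working call, so doublets were left in, and the alternative removed the 6% with the highest scores per library. The numbers of the replicates were not taken to pair libraries, since deviations from the label means correlated across genes at r from -0.54 to 0.67 over 18 pairs. Limits from 3 counts, for genes at 0, cover counting error only. In the stage models p-values measure the spread between libraries, each a pool of animals, with the spread between runs included. In the comparisons of cells they measure the spread left after the library block.

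The members and gene lists were chosen with earlier results of these data known. All members were named, and other genes were named by the lists of inhibitors, activators, substrates and further *Mmp* genes or as the 3 genes most alike to a member. The models were tested on simulated data. Alternatives were DESeq2 1.42.0, RLE size factors, no filter on low counts, no library block, blocks of replicate number or suffix run, thinned counts, other cell limits and cluster settings, the runs alone and leaving out each library.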

Additional observations from a re-analysis of the deposited data

How the results depend on the processing

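Of 70 pairs of a member and a comparison of cells, 50 were called, and 48 of these kept their sign in every run of suffixes with a value. The others were *Mmp11* in osteoblasts (0.050 on the log2 scale in suffixes 1 to 3 alone) and *Mmp19* in the lining against the sublining (-0.69 there). The cause was not tested. *Mmp11* in muscle was not called without resolving 1 or resolved 3 (-3.34 to -2.19 over all fits without 1 library). Members lower than in fibroblasts numbered 36 over the 7 cell types, and 21 in suffixes 10 to 12 alone, where fewer libraries were fitted. Members higher in the lining than in the sublining numbered 1, but 2 with DESeq2, without the filter on low counts and in suffixes 4 to 6 alone, and 0 with thinned counts and in suffixes 1 to 3, 7 to 9 and 10 to 12 alone. Members lower there numbered 2, and 4 with DESeq2. Members lower in the lining than in the other fibroblasts numbered 5, and 3 with thinned counts. Leaving out 1 library gave 6 to 8 pairs higher and 34 to 37 lower than in fibroblasts, 0 to 2 members higher and 2 to 4 lower in the lining against the sublining, and 5 lower in the lining against the other fibroblasts. By stage, 0 member pairs were called in fibroblasts under each alternative run. In the other classes there were 4 with a block of suffix runs (*Mmp13* lower at each stage and *Mmp3* higher in resolved, all in chondrocytes), 6 without the filter on low counts and 0 to 1 on leaving out 1 library (1 without resolved 1). With the replicate number as a block, 0 member pairs were called. Over all genes of these classes, 5 were called with the replicate block, 32 with the suffix block, 305 without the filter and 2 with DESeq2, against 0. *Mmp10* had too few UMIs to be tested.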
